A study of Homo sapiens with 14 samples.

Results

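Progesterone receptor (PR) sites were compared between T47D cells given progesterone (P4) and cells given ethanol, the vehicle, for 1 h. T47D is an established luminal breast cancer line that carries the oestrogen receptor and PR. Both groups were the same unmodified line in a medium with serum, the labels give no P4 dose, and 1 line is the whole model. Each group had 3 PR chromatin immunoprecipitation (ChIP-seq) libraries and 1 deposited list of bound regions, beside lists for POLR3A, a catalytic core subunit of RNA polymerase III. All 150448 PR regions on chromosomes 1 to 22 and X were taken, 38933 under vehicle and 111515 under P4, of 230789 regions in the 4 lists. Regions with 1 bp or more in common with a region of the opposite treatment were called shared. A P4 region with no such overlap was called gained, and a vehicle region with none was called lost. These words describe presence in a list, and a site missing from a list is not shown to be unbound. Since a list holds its group's libraries together, no difference could be set against the spread between replicates. Intervals on shares are 95% Wilson intervals, which cover counting error over regions only and treat neighbouring regions as independent. The lists carry no read counts, so depth is unknown, and the part of unequal depth in the longer P4 list was not tested.

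PR is a nuclear receptor held by chaperones until progesterone binds it. The hormone-bound receptor dimerises and binds DNA at an inverted repeat that it shares with the glucocorticoid and mineralocorticoid receptors. It recruits coactivators and acts on many genes from distal enhancers. In breast epithelium it drives paracrine signals to neighbouring cells, and in T47D cells it controls genes of growth, metabolism and lipid handling.

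The inverted repeat was searched in promoter windows of protein-coding genes, as the arm AGAACA, any 3 bases, and the arm TGTTCT. Read on the other strand it is the same word, so 1 search covers both strands. Windows and sequences are those of RefSeq for GRCh38.p14 and run from 250 bases before the start of a gene to 50 after it. The 6 windows below were touched by a P4 region and came closest to the repeat, with ties ordered by the score of the region. They are shown because they place the word beside the summit, the position of strongest signal in a region. Each is printed 5′ to 3′ in the direction of the gene, and capitals mark the 15 bases of the match. Windows inside an annotated gene are shortened to 7 bases on each side of the match.
H1-3: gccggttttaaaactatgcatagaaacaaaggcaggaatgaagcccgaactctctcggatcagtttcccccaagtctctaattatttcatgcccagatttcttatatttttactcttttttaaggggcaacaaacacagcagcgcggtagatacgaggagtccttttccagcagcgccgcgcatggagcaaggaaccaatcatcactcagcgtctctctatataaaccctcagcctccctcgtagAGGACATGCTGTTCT
RNF41: gccgggaAGAACATAGAGTTCTccctcct
HSPA4: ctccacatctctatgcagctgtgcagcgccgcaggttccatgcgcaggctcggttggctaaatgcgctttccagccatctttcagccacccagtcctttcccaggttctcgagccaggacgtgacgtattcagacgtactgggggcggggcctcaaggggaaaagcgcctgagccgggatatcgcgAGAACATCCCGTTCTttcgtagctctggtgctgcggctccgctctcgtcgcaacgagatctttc
ACOT7: tttgtagAGAACATCCTGTGATccagttc
ASB9: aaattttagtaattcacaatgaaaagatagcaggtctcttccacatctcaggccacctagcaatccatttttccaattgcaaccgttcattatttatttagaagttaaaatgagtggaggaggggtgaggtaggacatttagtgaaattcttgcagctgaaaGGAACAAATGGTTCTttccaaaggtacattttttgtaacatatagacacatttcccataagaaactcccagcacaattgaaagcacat
CELF1: agcacggAGCAGAATCTGTTCTgctgaag

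All 6 matches lay at regions shared by the lists. Substitutions are counted from 1 at the 5′ end of the printed match, with the base of the repeat first. In H1-3, a linker histone gene, the match carried A3G and its centre lay 9 bp from the P4 summit (chr6:26234978-26235237, minus strand). The match of H1-3 crosses the start of the gene, and the bases before it lie in no annotated gene. In the window of RNF41, a ubiquitin ligase gene, the match carried T10A and lay 7 bp from the summit (chr12:56222123-56222151, minus strand, inside the span of NABP2). HSPA4, a heat shock protein gene of the HSP110 family, had T10C in its match, 12 bp from the summit (chr5:133051763-133052012, plus strand, in no annotated gene). These were the closest matches in any promoter window with a P4 region, and each lay within 12 bp of the strongest signal.

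The other 3 windows had a pair of substitutions each. ACOT7, an acyl-CoA thioesterase gene, had T13G and C14A and lay 21 bp from the summit (chr1:6385858-6385886, minus strand, inside ACOT7). ASB9, a gene of the ankyrin repeat and SOCS box family, had A1G and T10G at 105 bp (chrX:15270468-15270717, minus strand, in no annotated gene). CELF1, an RNA-binding protein gene, had A3C and C5G at 31 bp (chr11:47524730-47524758, minus strand, inside CELF1). The authors' −log10 q-value, which ranks regions within 1 list, was highest for the ACOT7 region, at 264 in the P4 list and 114 in the vehicle list. It was 160 and 68.9 at H1-3, and 34.2 and 12.3 at HSPA4.

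No promoter window of 22012 held the repeat without a mismatch. With at most 1 mismatch it was in 19 windows, 0.0863% of all. Of these, 15 were touched by no PR region, 0.0901% of the 16644 windows without one. Shared P4 regions touched 1944 windows, or 8.83%, and 4 of them held such a match at 3 distinct positions, all within 50 bp of a summit. That is 0.206% of these windows (0.080 to 0.528), an interval that includes the share of all windows. Gained regions touched 3172 windows, or 14.4%, and 0 held such a match, which allows a share of up to 0.0946%. Lost regions touched 230 windows, or 1.04%, and 0 held such a match, which allows a share of up to 1.30%. With at most 2 mismatches the repeat was in 0.959% of all windows, in 1.29% of those at shared P4 regions (0.873 to 1.89) and in 0.883% of those at gained regions (0.611 to 1.27). The 2 shares have overlapping intervals. At strong regions they were 2.03% for shared regions with a −log10 q of 50 or more (1.07 to 3.82, 443 windows) and 0.256% for gained regions with 10 or more (0.0453 to 1.44, 390 windows), whose intervals also overlap. Over all scores, a word with both arms reversed, ACAAGA and TCTTGT around the same spacer, gave the opposite order. Shared minus gained was 0.40 percentage points for the repeat (−0.19 to 1.00) and −0.42 for the reversed word. Of the 46 positions with exactly 2 mismatches, the 18 at shared regions had a median distance of 37 bp to the summit and the 28 at gained regions 68.5 bp. A match describes letters in a window and is not shown to be a binding site.

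The arm AGAACA or TGTTCT, counted on both strands, was denser close to summits in both classes. It occurred 0.450 times per kb in all promoter windows. Within 25 bp of a shared P4 summit it occurred 1.47 times per kb (exact Poisson interval 1.06 to 2.00, counting error only), and 0.259 times per kb at 200 to 400 bp (0.196 to 0.336). Within 25 bp of a gained summit it occurred 0.794 times per kb (0.579 to 1.06), and 0.309 times per kb at 200 to 400 bp (0.262 to 0.361). The density was thus higher near the summits of both classes than farther away, and the intervals of the classes within 25 bp only just overlap. The reversed arm, ACAAGA or TCTTGT, had 0.320 per kb in all windows, 0.396 within 25 bp of shared summits (0.197 to 0.708) and 0.477 within 25 bp of gained summits (0.314 to 0.693). At 200 to 400 bp it had 0.269 per kb around shared summits (0.204 to 0.346) and 0.238 around gained ones (0.197 to 0.285). Around gained summits the reversed arm was therefore also denser at the centre, and the arm's own interval there overlaps that of the reversed arm. Over whole windows the arm was in 11.9% of windows at shared regions, 10.7% at gained regions and 11.8% of all (11.3 to 12.2). It was more frequent at strong regions, in 16.0% of windows at shared regions with a −log10 q of 50 or more (12.9 to 19.7) and 17.2% at gained regions with 10 or more (13.8 to 21.2).

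**Figure D1:**
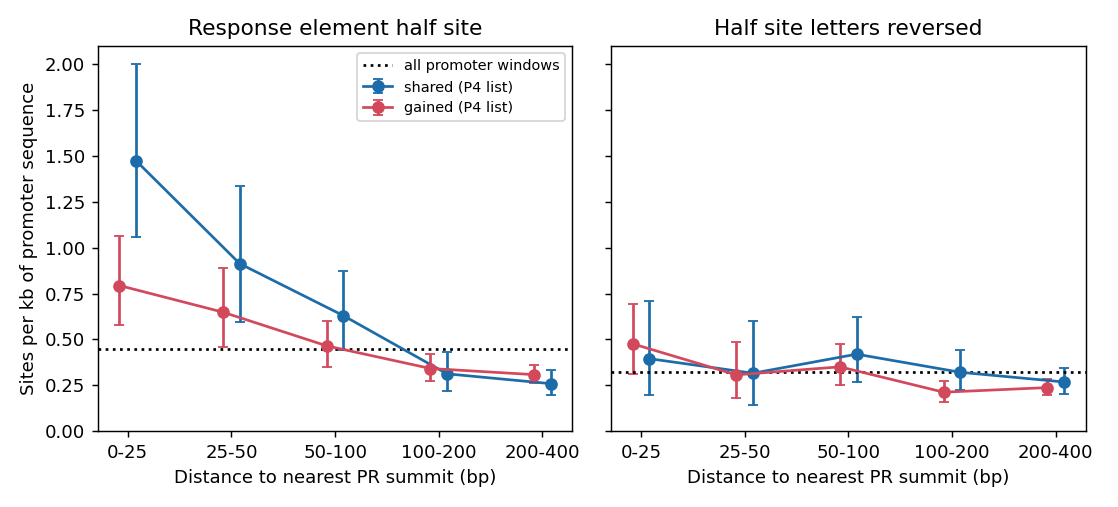
Density of the 6-base arm of the response element (left) and of the same letters reversed (right), in sites per kb of promoter sequence, against the distance in bp to the nearest PR summit of shared and gained regions. Bars are exact 95% Poisson intervals and the dotted line is the density in all windows. Within 25 bp of summits the arm reaches 1.47 per kb at shared and 0.794 at gained regions, and the reversed letters 0.396 and 0.477.

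Gained regions made up 82732 or 74.2% of the P4 list, and lost regions 9449 or 24.3% of the vehicle list. Both lay toward the weak end of their lists. With the P4 list cut to the length of the vehicle list by score, 55.9% of P4 and 58.1% of vehicle regions were shared. With the whole lists these shares were 25.8% and 75.7%, so the size of the gained class depends on the length of the P4 list. Near the threshold of 1 bp, 365 shared P4 regions overlapped by 50 bp or less, with a median −log10 q of 3.63, and 296 gained regions lay under 50 bp from a vehicle region, with a median of 3.42. In the vehicle list the share found again under P4 climbed from 46.0% in the weakest of 10 bins of nearly equal size to 99.97% in the strongest, where 1 region of 3894 had no P4 partner. With −log10 q at 50 or above, the vehicle list had 3169 regions, and 0 of them were lost, which is a count over the whole list. Gained regions reached further up. Of 30541 P4 regions at 10 or more, 10758 were gained (35.2%), and of 18720 at 20 or more, 3220 (17.2%). At 50 or more 177 of 8985 were gained (1.97%), and at 100 or more 1 of 4537 (0.022%). The gained share thus fell with score. Of the P4 regions at 10 or more, 64.8% were shared with the whole vehicle list, and 38.2% with vehicle regions that also reached 10.

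**Figure D2:**
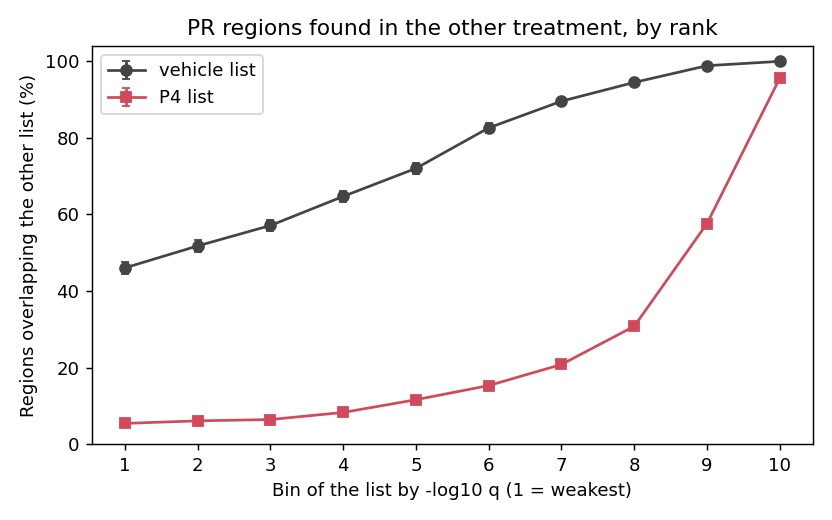
Share of PR regions (percent) that overlap the list of the other treatment, in 10 bins of each list ordered by −log10 q from weakest (1) to strongest (10), with 95% Wilson intervals. The vehicle list runs from 46.0% to 99.97%, and the P4 list stays at 20.8% or less in its 7 weakest bins and ends at 95.6%.

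Shared regions were broad and gained regions narrow. The median width was 445 bp for shared and 259 bp for gained regions of the P4 list, and 314 bp for shared and 240 bp for lost regions of the vehicle list. Over 1 kb were 2835 shared P4 regions (9.85%), 423 gained, 633 shared vehicle and 3 lost regions. The authors' fold enrichment had a median of 7.13 in shared and 3.33 in gained regions of the P4 list, with a highest value of 22.4 among gained regions and 71.2 among shared ones. Gained regions together covered 25.2 Mb and shared P4 regions 15.9 Mb, so the more numerous class held more sequence in smaller pieces.

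At shared sites the summits of the lists lay close together, and the P4 region was usually the wider. Of the shared regions, 27194 pairs had a single partner in each direction. Their summits were a median of 29 bp apart (quartiles 12 and 69), 67.5% were within 50 bp (67.0 to 68.1), and 337 pairs were more than 500 bp apart. Among 11423 pairs with a −log10 q of at least 10 in both lists the median was 16 bp and 90.4% lay within 50 bp. The P4 region was the wider of the pair in 77.9% of pairs, with medians of 310 bp under vehicle and 435 bp under P4 and a median ratio of 1.29. Joined regions were few: 984 P4 regions spanned at least 2 vehicle regions, and 338 vehicle regions at least 2 P4 regions. Region width depends on depth and calling, and the part of these in the greater width was not tested.

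**Figure D3:**
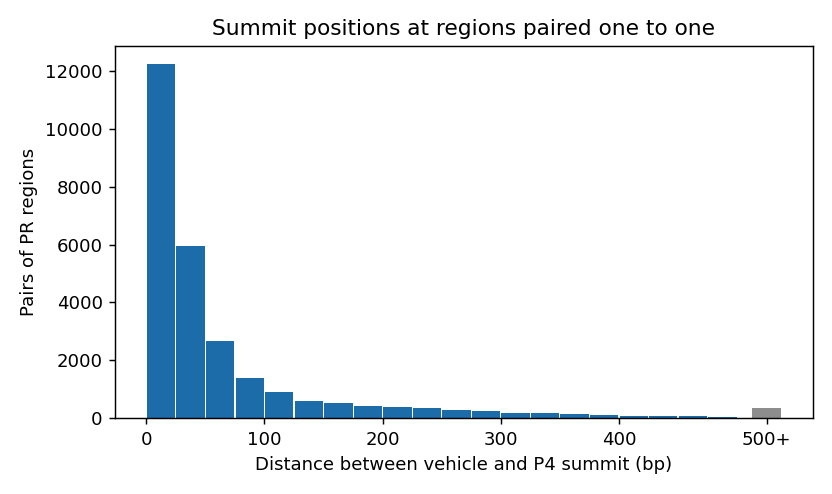
Number of region pairs by distance in bp between the vehicle and the P4 summit, in bins of 25 bp, for regions with a single partner in each direction. Most pairs fall in the first bins, with a median of 29 bp; the grey bar gathers the 342 pairs at 500 bp or more.

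Of the 5 strongest shared regions of the P4 list, 4 had a partner among the 5 strongest of the vehicle list. The highest was inside DERA, a deoxyribose phosphate aldolase gene (chr12:15936676-15937276), with a −log10 q of 517 and a summit 2 bp from that of the vehicle list. Others lay near PXDC1, inside ZBTB16, which encodes the zinc finger protein PLZF, and near SLC25A17, a peroxisomal carrier, and C9orf152, with summits 4 to 35 bp from their partners. The partners among the strongest vehicle regions were those of DERA, PXDC1, ZBTB16 and C9orf152. The highest vehicle region lay 7340 bp from MRFAP1, with a −log10 q of 549 in the vehicle list and a partner at 439 in the P4 list.

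The strongest gained region lay at chr1:121604825-121605112, 141842 bp from LINC02798, with a −log10 q of 108. Its nearest vehicle summit, at a −log10 q of 11.3, was 5485 bp away, and the region was in the longest stretch without a gene on chromosome 1. The next was 277 bp from CTNND1, which encodes p120 catenin of adherens junctions (chr11:57761092-57761982), at 96.0 and with the nearest vehicle summit 3744 bp away. The gained region inside PRPH2, a photoreceptor disc gene, reached 95.8 and was 67166 bp from any vehicle summit. The one inside PRRC2B had a −log10 q of 95.4, and the fold enrichment of the one near RAB11FIP4, a Rab11 effector, was 19.7, with vehicle summits 2610 and 656 bp away. The strong gained regions thus included both neighbours of vehicle sites and a site far from any.

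The strongest lost region was inside NAALADL2 (chr3:175697814-175698311), with a −log10 q of 41.8 in the vehicle list and the nearest P4 summit 17766 bp away. Those inside REDIC1, 3110174 bp from LINC02798, 97735 bp from BLID and 809574 bp from MAT2B, the regulatory subunit of methionine adenosyltransferase, were between 32.7 and 36.1. The one nearest LINC02798 was in the longest stretch without a gene on chromosome 1 and had a fold enrichment of 3.49. All 5 of the strongest lost regions overlapped a POLR3A region in at least 1 of the POLR3A lists, against 27.3% of all lost regions. The 5 strongest shared regions of the P4 list and of the vehicle list all overlapped one in both POLR3A lists. Of all 31 lost regions at 20 or more, 87.1% overlapped a POLR3A region of the vehicle list (71.1 to 94.9).

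Many gained regions lay near sites of the vehicle list, and lost regions lay nearer still to sites of the P4 list, which is the denser one. The nearest vehicle summit was a median of 9302.5 bp from a gained summit, with 9.57% within 1 kb and 51.6% within 10 kb. At the far end, 6712 gained regions (8.11%) were more than 100 kb from any vehicle summit. The nearest P4 summit was a median of 1984 bp from a lost summit, with 30.4% within 1 kb and 82.8% within 10 kb. Neighbouring summits were a median of 12670.5 bp apart under vehicle and 5083 bp under P4.

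Inside protein-coding genes lay 54.3% of gained regions (53.9 to 54.6), 48.8% of shared P4 regions (48.2 to 49.3) and 43.7% of lost regions (42.7 to 44.7). Such genes take up 42.5% of the span of the chromosomes. Within 1 kb of a start were 10.2% of shared P4, 8.65% of gained and 8.52% of lost regions, and summits were spread nearly evenly before and after the start. These shares changed with score. At a −log10 q of 1 to 5 they were 18.5% for shared P4 and 8.68% for gained regions. They were 15.6% and 9.78% at 5 to 10, and 8.80% and 6.38% at 10 to 20. At 20 to 50 they were 7.06% and 6.45%, and at 50 or more 6.31% and 7.93%. In the vehicle list shared and lost regions had 17.1% and 9.43% at 1 to 5, and 6.05% and 0.0% at 10 to 20. The starts are those of the 15812 of 19821 protein-coding genes that have a promoter window, and chromosome 8 is not included in values on starts and windows. A promoter window was touched by 5.71% of shared P4 and 3.45% of gained regions, a difference of −2.26 percentage points. Its direction turned at a −log10 q of at least 5 in both lists, where gained regions exceeded shared ones by 0.78 percentage points, and by 0.89 at 10. Such a minimum also counts as gained a P4 region whose vehicle partner falls below it, so these classes differ from those above. The part of region width in this difference was not tested.

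The classes also differed in sequence far from genes. The longest stretch without a gene on each chromosome, 109 Mb or 3.69% of the span in all, held 16.3% of lost regions (15.6 to 17.1), 7.86% of shared P4 and 2.62% of gained regions. On chromosome 1 this stretch contains the centromere, whose DNA is highly repeated. Of the 333 lost regions with a −log10 q of 10 or more, 186 lay there, or 55.9% (50.5 to 61.1), and of the 31 with 20 or more, 10 or 32.3% (18.6 to 49.9). Outside these stretches lost regions were inside protein-coding genes in 52.3% of cases, shared P4 regions in 52.9% and gained regions in 55.7%. This held over all scores only: outside the stretches, lost regions with a −log10 q of 5 or more were inside such genes in 41.6% of cases and those with 10 or more in 19.7%, 29 of 147, against 52.6% of shared vehicle regions at each minimum. Without the stretches, 77.5% of vehicle regions were shared. How reads were placed in repeats is not given in the sources used here, and its part in the lost class was not tested.

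**Figure D4:**
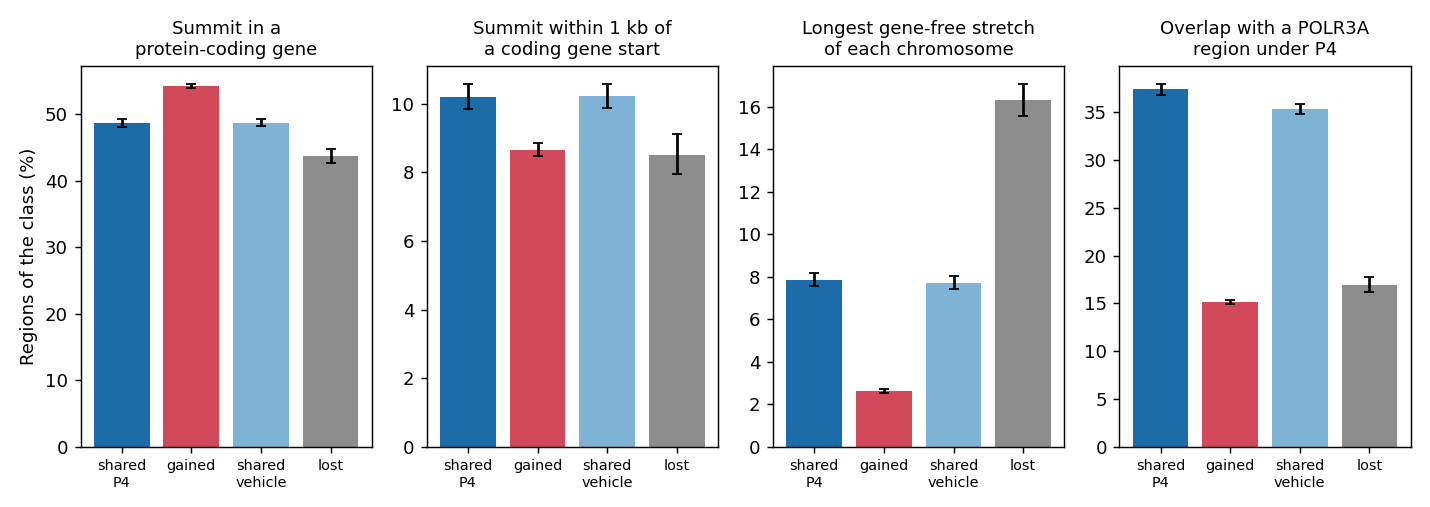
Share of regions (percent) of each class with the summit inside a protein-coding gene, with the summit within 1 kb of a start, in the longest gene-free stretch of a chromosome, and overlapping a POLR3A region under P4; bars are 95% Wilson intervals and each panel has its own axis from 0. Lost regions stand highest in the gene-free stretches, at 16.3%, and shared regions highest in the POLR3A panel, at 37.4% and 35.4%.

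PR regions joined into clusters when neighbouring regions lay within a join distance of just over 12 kb. The P4 list formed 34472 clusters, of which 17461 were single regions and 2026 held 10 or more, with 37.8% of all P4 regions. The vehicle list formed 19576, of which 334 held 10 or more, with 15.5% of its regions. Summits lie closer together in the longer P4 list, so a fixed join distance gathers more of its regions into large clusters. Shares with lists of equal length are not given here. A shared region was present in 13722 P4 clusters, and 49232 gained regions (59.5%) lay in one of these. The other 20750 P4 clusters were of gained regions alone and were small: 13988 were single and 67 had 10 or more. The number of P4 clusters was 19040 at a −log10 q of 10 or more, 56193 with a join distance of 5 kb and 21014 with 25 kb.

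The cluster with the most P4 regions was chr16:85275537-85827456, with 316, of which 203 were gained, against 150 vehicle regions. It spans GSE1, GINS2, a subunit of the replicative GINS complex, C16orf74, EMC8, of the endoplasmic reticulum membrane complex, and COX4I1, a cytochrome c oxidase subunit. PR regions covered 39.1% of it, and it also held 269 POLR3A regions under P4 and 196 under vehicle. The next, chr11:51093760-51727977, had 223 P4 regions, of which 103 were gained, and no protein-coding gene, and it lies in the longest gene-free stretch of its chromosome. Those on chromosome 3 at BDH1, a ketone body enzyme, and RUBCN, an autophagy regulator, with 165, on chromosome 9 around SLC25A25 and LCN2, with 156, and on chromosome 12 at MED13L, of the Mediator kinase module, with 153, had 53 to 71 vehicle regions each. All 5 clusters thus had regions under vehicle. They were picked by their P4 counts, and the P4 list is 2.86 times as long, so higher counts under P4 were built into the choice. All 5 also held POLR3A regions, 91 to 269 each under P4 and 41 to 196 under vehicle.

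Single genes held many gained regions inside their spans. GSE1 had 161, GRIK4, a kainate receptor subunit, 110, KCNMA1, a calcium-activated potassium channel, 105, RAD51B, of recombination repair, 81, and ANKRD11, a chromatin regulator, 78. The vehicle list held 117 regions inside GSE1, 50 inside GRIK4, 73 inside KCNMA1, 35 inside RAD51B and 39 inside ANKRD11. In the same order the P4 list held 250, 146, 165, 108 and 107. Over the whole P4 list 74.2% of regions were gained, so these genes were rich in P4 regions of both classes. Long genes collect more regions, and by gained regions per kb with 50 kb on each side the leading genes were GINS2, C16orf74, WFIKKN2, ST6GALNAC4, a sialyltransferase, and HDAC7, a class IIa histone deacetylase. GINS2 and C16orf74 lie in the GSE1 cluster. HDAC7 had 9 vehicle and 61 P4 regions, of which 52 were gained. Genes with lost and no gained regions had few: MSRB3, a methionine sulfoxide reductase, had 3 lost, and COL6A6, a collagen VI chain, and FER, a tyrosine kinase, had 2 each, tied with others and taken in order of symbol.

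Most protein-coding genes had a PR region within 50 kb, which sets the background for any list: 14785 of 19821 or 74.6% under vehicle, and 17936 or 90.5% under P4. A gained region lay near 17560 genes, or 88.6%, and a lost region near 8718, or 44%. P4 regions outnumbered vehicle regions near 17289 genes, or 87.2%. The median gene had 2 vehicle and 8 P4 regions. No vehicle region and at least 1 P4 region were found near 3225 genes, the opposite near 74, and neither near 1811. Under vehicle the count was 9014 for regions with −log10 q of 10 or more, and 7756 for regions inside the gene span alone. The lists of genes below were chosen by function, and a share near these values is not a property of a list.

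The chaperones of the receptor had more regions than the median gene. All 9 had more P4 than vehicle regions, with medians of 26 and 9. FKBP5, the co-chaperone that lowers hormone affinity of steroid receptors, had 25 vehicle and 50 P4 regions. STIP1, which links HSP70 to HSP90, had 12 and 34, HSP90AA1, the inducible HSP90, 5 and 26, and PTGES3, which encodes p23, 15 and 27. At HSPA1A, an HSP70 gene, with 6 and 28, the strongest P4 region was a gained one. It lay 8853 bp outside the gene with a −log10 q of 35.8.

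Of 15 transcription factors known as progesterone-induced, 14 had more P4 than vehicle regions, with medians of 14 and 6. CEBPB, a bZIP factor of mammary development, had 15 vehicle and 43 P4 regions, and ELF5, an alveolar lineage factor, 6 and 22. EHF, an epithelial ETS factor, had 26 and 38 with 8 lost regions, the most in this list. FOXO1, a forkhead factor, had 1 in each list, and these overlapped. HEY1, a Notch target, had 0 and 3. At PER1, a clock gene, the strongest P4 region lay 489 bp from a start with a −log10 q of 98.5.

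Among 10 genes of kinases, phosphatases and growth control, 9 had more P4 regions, with medians of 10 and 2. MAP3K1, a kinase of the MAPK cascade, had 13 vehicle and 26 P4 regions, and CCND1, cyclin D1, 9 and 24. DUSP1, a MAPK phosphatase, had 2 and 10. CDKN1A, which encodes the cell cycle inhibitor p21, had 4 and 13, and its strongest P4 region lay 877 bp from a start. CDKN1B, which encodes p27, had 1 in each.

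The paracrine mediators stood at the low end. Of 10, 8 had more P4 regions, with medians of 4 and 2, below the median P4 count over all genes. TNFSF11, which encodes RANKL, had 3 vehicle and 5 P4 regions, WNT4 had 1 and 6, and AREG, amphiregulin, 3 and 6. WNT5A had 0 in both lists. IGF1 had 3 in each, 1 of them lost and 1 gained.

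All 10 genes of steroid metabolism and of ion and lipid transport had more P4 regions, with medians of 16.5 and 7. SLC7A5, an amino acid transporter, had 14 vehicle and 43 P4 regions, and HSD17B2, which oxidises oestradiol, 20 and 37. HSD11B2, which inactivates cortisol, had 11 and 24, and FASN, fatty acid synthase, 9 and 23. SCNN1A, an epithelial sodium channel subunit, had 4 and 5, the smallest difference of this list.

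Luminal factors and receptors also had more P4 regions in 10 of 10 genes, with medians of 14.5 and 6. PGR, which encodes PR itself, had 7 vehicle and 13 P4 regions, and its strongest P4 region lay 309 bp from a start with a −log10 q of 209. SPDEF, a luminal ETS factor, had 15 and 46, and ESR1, which encodes the oestrogen receptor, 15 and 28. FOXA1, a pioneer factor of steroid receptors, had 5 and 12.

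Coregulators and growth factor receptors followed the same pattern, with 10 of 10 genes each. KMT2D, a histone methyltransferase, had 10 vehicle and 38 P4 regions, and CREBBP, an acetyltransferase, had 7 and 26. The medians of the coregulators were 11.5 under P4 and 4 under vehicle. PRLR, the prolactin receptor gene, had 29 and 84, and IGF1R, the IGF1 receptor gene, 36 and 82, the highest P4 counts in these lists. ERBB3 had 20 and 41, EGFR 9 and 24, and ERBB2 5 and 16. IRS1, an insulin receptor substrate, had 0 and 3, and MET 0 and 1.

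Genes of other lineages, set beside these, had more P4 regions in 9 of 14, with medians of 3.5 and 2. No region was within 50 kb of ALB, MYH7, NEUROD1, HBB or AMELX in either list. The list had also held CSN2, the beta-casein gene of lactating mammary epithelium, which is of the breast lineage, was taken out after its value was seen, and had 0 in both lists. TNNT2, cardiac troponin T, had 6 vehicle and 32 P4 regions. Expression of these genes was not measured here. As a check of the line, all 8 luminal marker genes had P4 regions, up to 69 at KRT8, but so did the 3 basal markers, including KRT14 with 20. Binding near genes therefore did not separate the luminal from the basal markers.

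**Figure D5:**
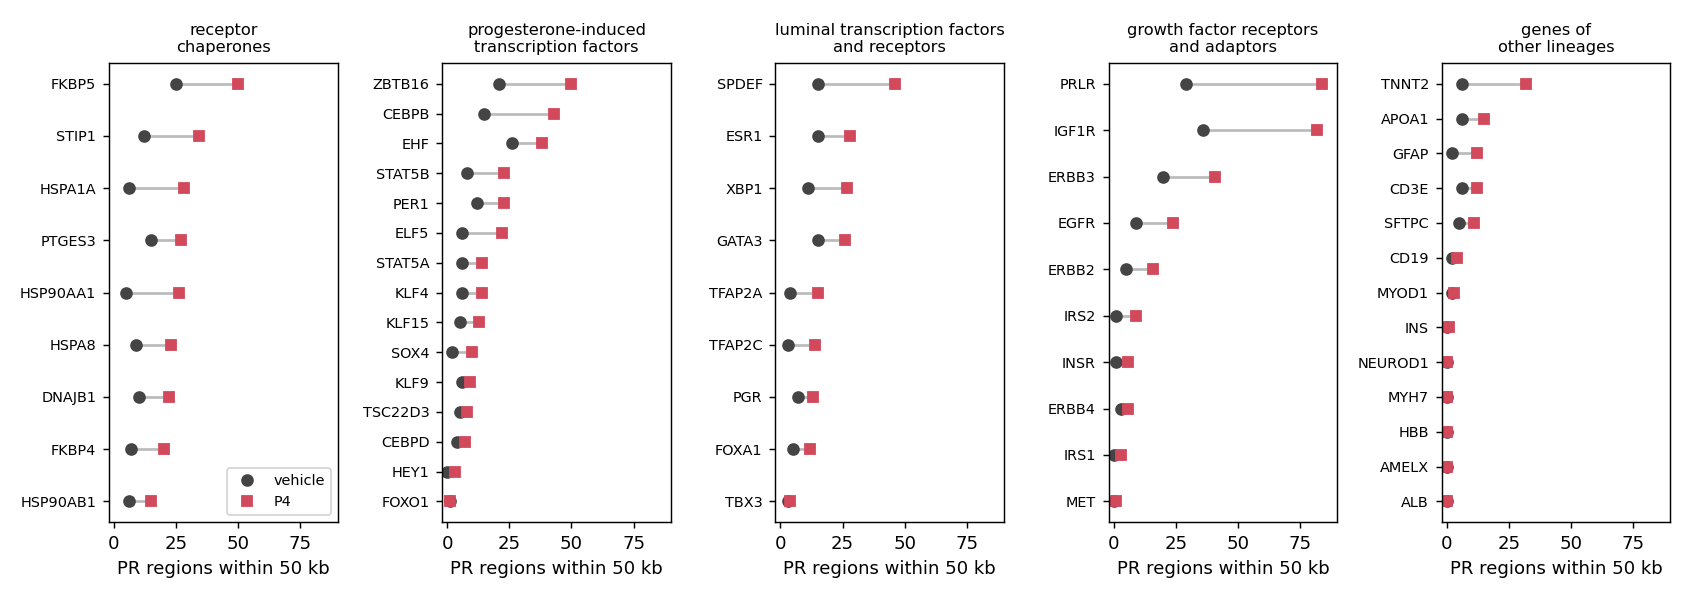
Number of PR regions within 50 kb of each gene under vehicle (circles) and P4 (squares) for genes of 5 lists, with a line joining the values of a gene. PRLR and IGF1R reach 84 and 82 under P4, and 5 genes of other lineages stay at 0 in both lists.

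PR regions that were in both lists coincided with POLR3A more often than gained ones. A POLR3A region of the P4 list overlapped 37.4% of shared P4 regions (36.9 to 38.0) and 15.2% of gained regions (14.9 to 15.4). In the vehicle list, POLR3A overlapped 26.6% of shared regions and 16.8% of lost regions under the same treatment. Shared regions are broader and stronger, so the classes were also set side by side by score. For P4 regions with a −log10 q from 10 to 20 the shares were 39.5% and 11.5%, and at 50 or more 34.0% and 13.6%. In the vehicle list the order turned with score. At 5 to 10 shared regions had 24.8% and lost regions 24.6%, at 10 to 20 they had 23.3% (22.2 to 24.5) and 39.4% (34.1 to 45.0), and at 20 to 50 they had 24.2% and 87.1%, the last over 31 lost regions. In the P4 list, median widths at 10 to 20 were still 380 and 292 bp. With a minimum of 10 in every list the difference between gained and shared regions, −22.3 percentage points as reported, was −8.74. That minimum also counts as gained a P4 region whose vehicle partner falls below it. With a reciprocal overlap of 50% the difference was −11.8.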

How the data were processed

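PR ChIP-seq in T47D cells was deposited as 1 list of regions per treatment. Per the labels, each group had 3 replicate libraries, with 1 pooled input per treatment. Cutadapt, Bowtie2, MACS2 and build hg38 are named in the submitters' processing notes, without versions. How replicates were pooled and which control was used are not given in the sources used here. The deposited columns are a fold enrichment (a ratio) and a −log10 q-value for each region, a −log10 p-value not used here, and the summit offset. The highest q-value was 0.0495. These scores are the authors' and were used to rank or filter regions within a list.

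From the lists, overlaps (at least 1 bp, checked with bedtools 2.31.1), summit distances, clusters (12500 bp), gene counts (50 kb on each side) and motif matches were computed with Python 3.11.15, numpy 2.4.6, pandas 2.3.3 and scipy 1.17.1. The code was tested on simulated data. Genes and promoter windows came from RefSeq tables of GRCh38.p14. Of 59098 genes, 58419 were used, those listed before the start positions of a chromosome first step back, since alternate sequences follow. Depth is unknown.

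No test across samples was possible with 1 list per group. Named regions were the 5 of each class with the highest −log10 q, the 5 clusters with most P4 regions, the 5 genes with most gained regions in span and per kb, 3 with lost regions alone, 6 promoters closest to the response element, and genes of functional lists. Members and lists were chosen with earlier results of these data known. Alternatives changed the score minimum, overlap rule, list length, windows and join distance. A few genes of the lists are counted but not reported here by name.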

Additional observations from a re-analysis of the deposited data

Results flagged for a closer look

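Regions outside chromosomes 1 to 22 and X were in no comparison. The vehicle list held 42 regions on chromosome Y and 617 on unplaced and unlocalised sequences. The P4 list held 72 on chromosome Y and 946 on such sequences. All 4 counts exceed the limit of 3 that a count of 0 allows, which only flags them. What these regions come from was not tested, and the inputs were not analysed here as a list of their own.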

How the results depend on the processing

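No paired analysis was possible because the 3 replicates of a group share 1 list, and for the same reason no replicate could be left out. The share of P4 regions with a vehicle counterpart, 25.8% as reported, was 33.7% and 38.2% at a −log10 q of at least 5 and 10 in every list, 55.9% with lists of equal length, 18.6% with a reciprocal overlap of 50%, 24.02% with summits within 250 bp, 24.8% without the gene-free stretches and 64.8% with the minimum of 10 in the P4 list only. The share of vehicle regions with a P4 counterpart, 75.7% as reported, was 87.2%, 94.2%, 58.1%, 53.4%, 68.8%, 77.5% and 97.3% in the same order, the last with the minimum in the vehicle list. The promoter difference between gained and shared regions, −2.26 percentage points, became 0.78 and 0.89 at the 2 score minimums and −1.31 with equal lengths. A minimum in every list also counts as gained a P4 region whose vehicle partner falls below it, so the classes change. The POLR3A difference, −22.3 percentage points, was −12.3, −8.74, −21.4, −11.8 and −15.1 with score minimums of 5 and 10, equal lengths, reciprocal overlap and summits within 250 bp. P4 clusters, 34472 as reported, numbered 19040 at the minimum of 10, 22507 with equal lengths, 56193 joined at 5 kb and 21014 at 25 kb. Genes with a vehicle region, 14785 as reported, were 9014 at the minimum of 10 and 7756 by gene span alone. The response element difference between shared and gained regions, 0.40 percentage points (−0.19 to 1.00), was 0.21 with at most 1 mismatch. A different word, with reversed arms, had −0.42. The cause of these shifts was not tested. The settings without gene-free stretches, with a minimum in 1 list and with reversed arms were chosen after seeing the data.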

Other observations

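The P4 list was longer than the vehicle list on every one of the chromosomes analysed, with a ratio from 2.07 on chromosome 13 to 3.13 on chromosome 22. The lost share of vehicle regions ran from 12.2% on chromosome 21 to 35.0% on chromosome 18. On chromosome 18 the longest gene-free stretch held 157 of the 203 lost regions and 256 of the 580 vehicle regions.

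Among clusters of gained regions alone, the one with most regions was chr12:120682564-120766565, with 18 gained and 0 vehicle regions, over MLEC, UNC119B, ACADS, a short-chain acyl-CoA dehydrogenase, and SPPL3. Its strongest region had a −log10 q of 25.6. BLVRA, the biliverdin reductase gene on chromosome 7, MLEC and PDE8A, a cAMP phosphodiesterase, had the most P4 regions within 50 kb among genes with none under vehicle, 22 each. These genes and this cluster were chosen after their values were seen.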
